A study of Homo sapiens with 3 samples.

Results

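The mitochondrial chaperones and proteases HSPE1, HSPD1, HSPA9, GRPEL1, DNAJA3, TRAP1, LONP1, CLPP and CLPX were examined in HCT116, a human colorectal carcinoma cell line. They are 9 of 19775 genes named on the array, measured by the 20 of 54613 probe sets that the platform annotation maps to exactly 1 of these symbols. No probe set named a member together with another gene, and no filter on level was applied. The set was selected on the array values of HSPE1, which was higher with both UHRF1 hairpins, and its difference from the control is therefore described without a test.

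The study infected HCT116 cells with lentivirus carrying UHRF1 shRNA-2 (1 array), UHRF1 shRNA-5 (1 array) or a scrambled shRNA (1 array). All 3 cultures went through 6 days of puromycin selection, so the control shares the virus and the drug with the depleted cells. RNA was read on single-colour Affymetrix arrays. UHRF1, a protein that binds hemimethylated DNA and is needed to keep DNA methylation through replication, was the target, and the comparison asks which transcripts change when it is depleted. Its probe set read 6.20 with hairpin 2 and 6.67 with hairpin 5, against 8.54 on the control array.

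All values are log2 RMA expression, so a difference of 1 is a 2-fold change, and differences are hairpin minus control. Array medians were 2.977 with hairpin 2, 3.044 with hairpin 5 and 3.002 on the control, and having only 3 arrays limits the precision of every value. Epithelial markers fitted the label in part: KRT18 read between 12.15 and 12.48 and EPCAM between 9.93 and 10.23, while the intestinal genes CDX2 (4.46 to 4.89) and VIL1 (3.11 to 3.13) were low. Of 3 leukocyte markers on the array, none read above 3.48. Among fibroblast and endothelial markers COL1A1 read 6.39 with hairpin 2, 5.75 with hairpin 5 and 5.82 on the control. The other 3 read at most 3.60.

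Most mitochondrial proteins are made in the cytosol, threaded through the inner membrane unfolded, and folded in the matrix. The matrix Hsp70, HSPA9, pulls and holds the incoming chain with the help of J-proteins and a nucleotide exchange factor. The chaperonin then encloses it: HSPD1 (Hsp60) forms the barrel and HSPE1 (Hsp10) the lid. Chains that cannot be folded are degraded by LONP1 or by ClpXP, in which CLPX unfolds and CLPP cuts. HSPD1 and HSPE1 lie head to head and are known to be transcribed in opposite directions from a shared promoter region, which responds to heat shock.

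The promoter windows of HSPE1 and HSPD1 are printed because this gene pair shares regulatory sequence but read differently here. The windows are RefSeq's, build GRCh38.p14, from 250 bases before to 50 after a start site. Capitals mark an E-box (CACGTG) in HSPE1 and a run of heat shock element units in HSPD1.
HSPE1, plus strand, chr2:197500129-197500428: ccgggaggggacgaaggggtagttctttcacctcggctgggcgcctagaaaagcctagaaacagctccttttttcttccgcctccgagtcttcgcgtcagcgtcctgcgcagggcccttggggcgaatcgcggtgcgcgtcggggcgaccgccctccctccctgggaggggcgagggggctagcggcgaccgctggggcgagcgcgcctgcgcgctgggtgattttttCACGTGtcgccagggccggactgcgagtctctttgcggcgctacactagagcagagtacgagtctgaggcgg
HSPD1, inner start site, minus strand, chr2:197499791-197500090: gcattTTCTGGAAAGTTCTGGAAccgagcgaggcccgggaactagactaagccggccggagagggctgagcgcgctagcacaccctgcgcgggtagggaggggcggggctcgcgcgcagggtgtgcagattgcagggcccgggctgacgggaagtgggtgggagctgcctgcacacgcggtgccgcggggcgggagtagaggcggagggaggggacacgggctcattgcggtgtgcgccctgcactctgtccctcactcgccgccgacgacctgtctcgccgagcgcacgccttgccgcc

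The capitals in the HSPD1 window are an 18-base run, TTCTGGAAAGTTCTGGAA, in which GAA and TTC units alternate, as in the binding sequence of heat shock factors. It begins 294 bases before the HSPE1 start site and lies 189 bases inside HSPD1 as counted from the outer HSPD1 start site. The window of that outer start site shares 204 bases with the HSPE1 window, and the start sites are 105 bases apart.

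HSPE1 was higher with both hairpins. Its single probe set (205133_s_at) read 10.88 with hairpin 2 and 10.99 with hairpin 5, against 9.21 on the control array. Both hairpin arrays lay above the control, by 1.67 and 1.78, which is 3.18-fold and 3.43-fold. The mean difference was 1.72 ± 0.08 (SD, n = 2 hairpins). Ranked by the smaller of the 2 differences, HSPE1 stood at rank 2 of 11865 genes at or above the 40th percentile of level, after IFIT1. These values chose the set and support nothing further. The control value rests on 1 array, and RefSeq lists 28 HSPE1 pseudogenes by symbol, on 14 chromosomes. The suffix _s_at marks probes that can match several transcripts, so the level is uncertain in that respect, and no other HSPE1 probe set was there to compare.

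HSPD1, the barrel that HSPE1 closes, read differently. Its brightest probe set (200807_s_at) read 12.17 with hairpin 2 and 12.49 with hairpin 5, against 12.39 on the control array. The control therefore lay between the hairpins, and the mean difference of −0.07 was smaller than the SD of 0.23 between them (n = 2 hairpins). A further HSPD1 probe set (200806_s_at) read 9.32 with hairpin 2 and 9.92 with hairpin 5, against 9.16 on the control array. It was 0.16 and 0.76 higher, mean 0.46 ± 0.43 (SD, n = 2 hairpins), so these probe sets of one gene did not agree in size or side. The other 3 HSPD1 probe sets read at most 3.57 on any array, near the array medians, with mean differences from −0.20 to −0.07. RefSeq lists 22 HSPD1 pseudogenes by symbol.

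**Figure D1:**
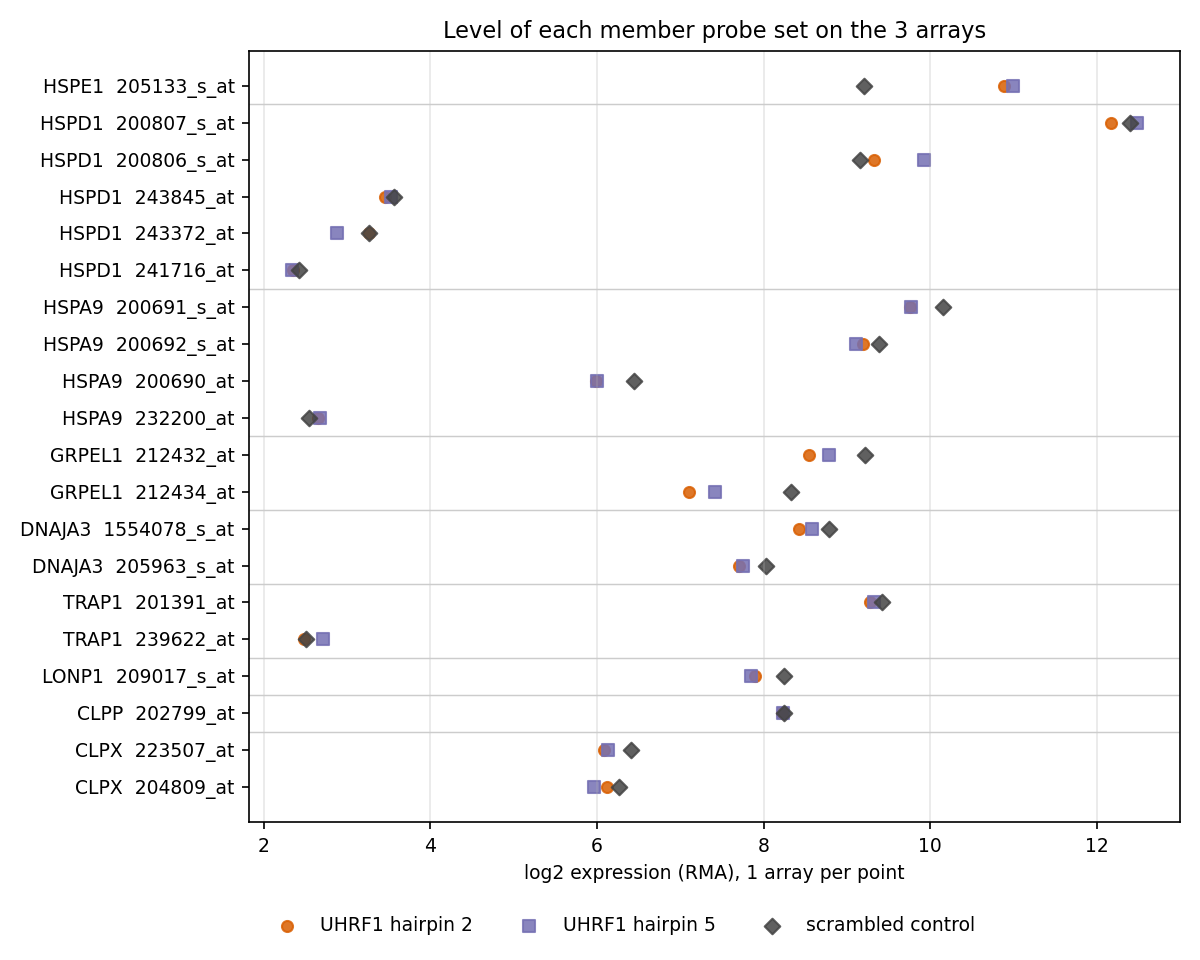
Level of every member probe set (rows, named by gene and probe set) on the log2 scale, with 1 point per array for UHRF1 hairpin 2, UHRF1 hairpin 5 and the scrambled control. HSPE1 is the row where both hairpins stand far to the right of the control (10.88 and 10.99 against 9.21), while both GRPEL1 rows stand to the left of it.

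The matrix Hsp70 and its helpers were lower with both hairpins. HSPA9 read 9.75 with hairpin 2 and 9.76 with hairpin 5, against 10.15 on the control array (200691_s_at). Its other bright probe sets read 9.19 and 9.11, against 9.39 on the control (200692_s_at), and 5.99 and 6.00, against 6.45 on the control (200690_at). All 3 thus placed both hairpins below the control, with mean differences of −0.40, −0.24 and −0.46 and SDs of at most 0.06 between hairpins. A dim HSPA9 probe set (232200_at, 2.54 on the control) was 0.11 and 0.13 higher, and with it averaged in, the mean difference of the gene was −0.24.

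GRPEL1, the nucleotide exchange factor that resets HSPA9 after each cycle, had the largest differences below the control among the members. Its brighter probe set (212432_at) read 8.55 with hairpin 2 and 8.79 with hairpin 5, against 9.22 on the control array. The other (212434_at) read 7.10 with hairpin 2 and 7.42 with hairpin 5, against 8.32 on the control array. Both placed the 2 hairpins below the control, by a mean of 0.55 in one and 1.06 in the other. In folds, hairpin 2 was 1.59-fold and 2.33-fold lower, and hairpin 5 was 1.35-fold and 1.87-fold lower. The SDs between hairpins were 0.17 and 0.22 (n = 2 hairpins), which do not include the error of the single control array.

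DNAJA3, a mitochondrial J-protein that hands substrates to HSPA9, was lower by smaller amounts. Its probe sets read 8.42 with hairpin 2 and 8.58 with hairpin 5, against 8.79 on the control (1554078_s_at), and 7.70 and 7.76, against 8.03 on the control (205963_s_at). The mean differences of −0.28 and −0.30 agreed between the probe sets. TRAP1, the mitochondrial Hsp90, read 9.28 with hairpin 2 and 9.33 with hairpin 5, against 9.42 on the control array. Its mean difference was −0.12 ± 0.03 (SD, n = 2 hairpins), and it was −0.01 when its dim probe set (239622_at) was averaged in.

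Among the proteases, LONP1, the AAA+ protease that clears damaged matrix proteins, read 7.89 with hairpin 2 and 7.85 with hairpin 5, against 8.24 on the control array. Both hairpins lay below the control, by a mean of 0.37 on the log2 scale. CLPX, the unfoldase of ClpXP, read 6.09 with hairpin 2 and 6.14 with hairpin 5, against 6.41 on the control (223507_at), and 6.12 and 5.96, against 6.27 on the control (204809_at). Its mean differences were −0.30 and −0.23. CLPP, the peptidase of the same complex, was level: 8.22 with hairpin 2 and 8.23 with hairpin 5, against 8.25 on the control array. Its difference of −0.02 turned to 0.01 after cyclic loess or quantile normalization.

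Counted over genes by their brightest probe set, 7 of the 8 members other than HSPE1 were lower than the control with both hairpins, HSPD1 was mixed, and none was higher. The 7 include CLPP, which was level at −0.03 and −0.02. They also include TRAP1, which was mixed at −0.08 and 0.06 when its probe sets were averaged. Over all genes 31.0% were lower with both hairpins and 30.5% higher, and among genes at or above the 40th percentile 32.3% were lower. The median difference of these 8 genes was −0.34 with hairpin 2 and −0.24 with hairpin 5, against 0.00 and 0.00 over all genes. Over genes at or above the 40th percentile the medians were 0.03 and −0.06. Over probe sets, 14 of the 19 without HSPE1 lay below the control with both hairpins, 2 above it and 3 on either side, where 30.8% of all probe sets were lower and 31.7% higher. Of all 20 member probe sets, 17 reached the 40th percentile of probe sets, and the 5 with a mean under 5 had mean differences between −0.20 and 0.12. The direction of all these counts is set against the same single control array.

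The size of these differences was small. HSPE1 was the 1 member probe set of 20 at least 2-fold higher with both hairpins, a count that follows from choosing the set on HSPE1. Of the 19 others, 0 were at least 2-fold higher with both (0.0586% of all probe sets) and 0 at least 2-fold lower (0.103% of all). At 1.5-fold, 1 GRPEL1 probe set was lower with both, where 0.699% of all were. In limma's test over all arrays, 0 of 54613 probe sets passed an adjusted p of 0.05 (0.0% called), with a minimum adjusted p of 0.9998. Without adjustment 1595, or 2.92%, had p under 0.05. Among the 19 member probe sets other than HSPE1, 0 passed and 3 had an unadjusted p under 0.05: both of GRPEL1 and 200690_at of HSPA9. An exact permutation over 3 arrays cannot go below p = 0.333. The target UHRF1, which differed by −2.35 and −1.88, was not called by limma either. The absence of calls therefore does not show that the members were unchanged.

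**Figure D2:**
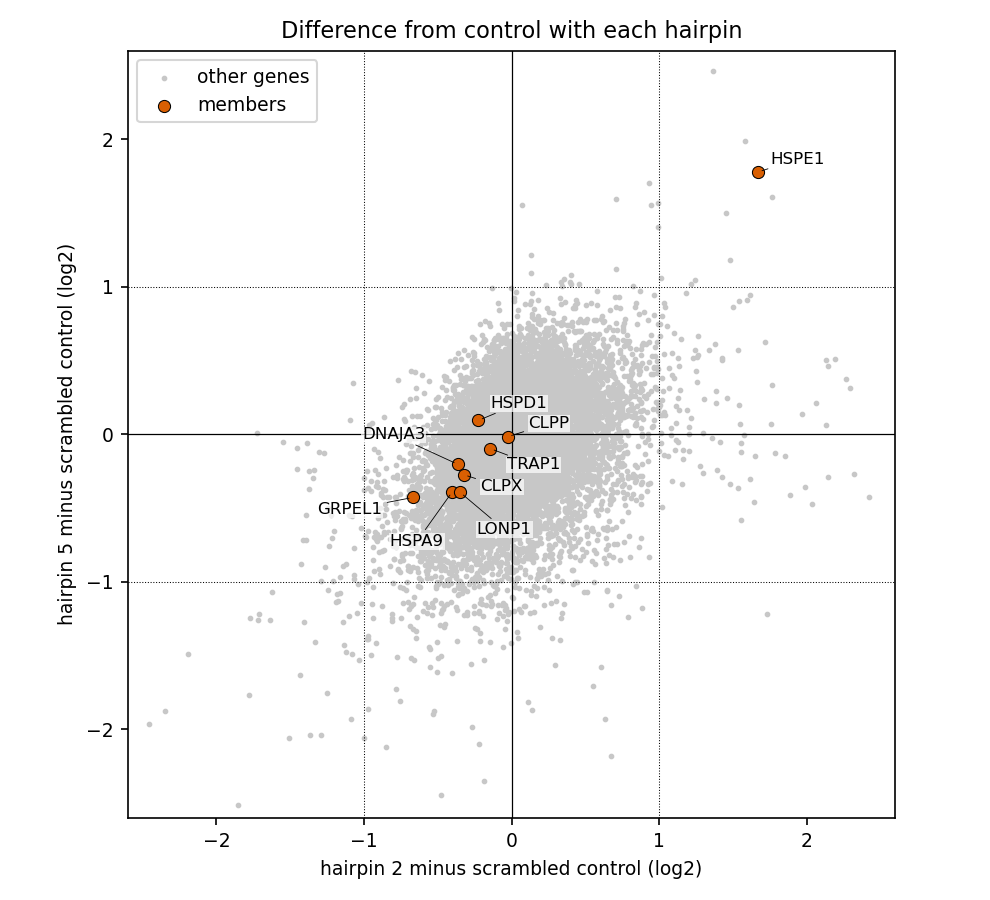
Difference from the scrambled control on the log2 scale, hairpin 2 on the horizontal and hairpin 5 on the vertical axis, for the 9 members (labelled) and the other genes at or above the 40th percentile (grey, 21 genes outside the axes not drawn; dotted lines mark 2-fold). HSPE1 stands at the upper right with few other genes near it, at 1.67 and 1.78, and the other 8 members lie between −0.67 and 0.09; the axes share 1 control array, which by itself draws points along the diagonal.

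How far the hairpins lay from each other depended on the normalization. Between hairpin 2 and hairpin 5 the median absolute difference was 0.0485 over the 8 members other than HSPE1 and 0.25 over genes at or above the 40th percentile. After cyclic loess it was 0.18 over these members and 0.23 over genes at that level, and after quantile normalization 0.21 and 0.23. As deposited, the largest was 0.32, for HSPD1, and 0 of the 8 differed 1.5-fold between hairpins, where 14.7% of genes at that level did. Over single probe sets the largest difference was 0.60, for 200806_s_at of HSPD1. No hairpin has a second array against which to check them.

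The genes beside HSPE1 and HSPD1 did not share the HSPE1 difference. MOB4, the next gene after HSPE1, is joined with it in the annotated readthrough transcript HSPE1-MOB4, which has no probe set of its own here. MOB4 read 7.58 with hairpin 2 and 7.58 with hairpin 5, against 7.47 on the control array. On the other side COQ10B, a coenzyme Q binding protein, differed by −0.09 and −0.43. SF3B1, a core splicing factor, was 0.13 and 0.28 higher by its brightest probe set and lower by 201070_x_at (−0.94 and −0.66) and 214305_s_at (−0.70 and −0.66). ANKRD44, RFTN2 and MARS2 read at most 3.42 on any array.

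**Figure D3:**
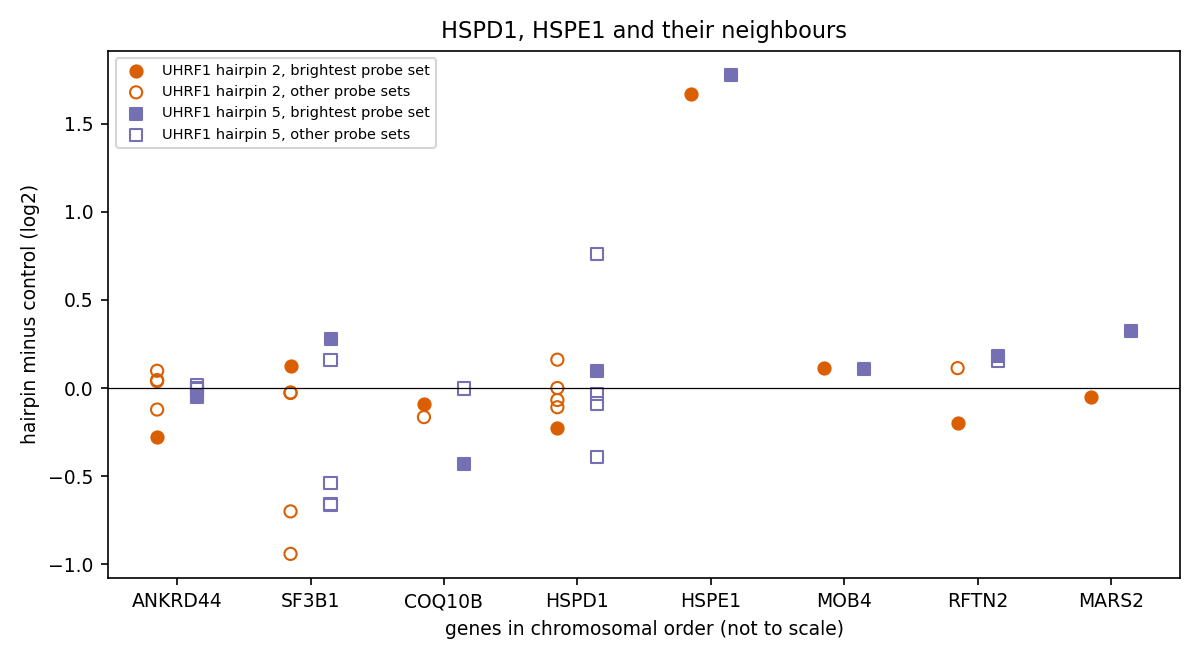
Difference from the control on the log2 scale for each probe set of HSPD1, HSPE1 and 3 genes on either side, in chromosomal order and not to scale, with circles for hairpin 2 and squares for hairpin 5 (filled for the brightest probe set of a gene, open for others). HSPE1 stands at 1.67 and 1.78, and the brightest probe sets of all other genes lie between −0.43 and 0.33.

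Promoter features of the members were set beside those of all windows. RefSeq windows were found for 7 of the 9 members, 9 windows in all, with none for GRPEL1 and CLPP in the table used. All 9 held more CpG, the dinucleotide whose methylation UHRF1 helps to keep, than the median of 14 over 35116 windows (quartiles 4 and 28). The HSPE1 window held 35 CpG, the HSPD1 windows 33 and 34, and TRAP1 45. Methylation was not measured. The HSPE1 and outer HSPD1 windows count the CpG of their shared bases alike. CLPX had the fewest, at 23, and HSPA9 had 27, both within the quartiles of all windows. Motifs were searched on both strands. The heat shock core GAANNTTC was in 6.77% of all windows and in 1 of the 9, the inner HSPD1 window. Forms with a further GAA or TTC unit, which overlap the core, were in 0.49% of all and in that same window. The HSPE1 window held none of these letters, which says only that they are not within its 300 bases. CACGTG was in 7.26% of windows and in 4 of the 9, of HSPE1, HSPD1, HSPA9 and LONP1, and those of HSPE1 and HSPD1 hold the same site in their shared bases. GGGCGG was in 45.0% of all and in 8 of the 9, with the HSPE1 window again sharing its site with the outer HSPD1 window. CCAAT was in 34.6% of all and in those of DNAJA3 and CLPX. The NRF1 motif was in 1.24% of all and in 1 LONP1 window. The amino acid response sequences TGATGCAA (0.866% of all) and TGATGNAAT (0.991%) were in 0 of the 9.

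Other mitochondrial proteases lay on both sides of the control. Of 16 on the array, both hairpins placed 8 below the control and 3 above it, and 5 were mixed, where 31.0% of all genes were lower and 30.5% higher. Of the 15 at or above the 40th percentile, 8 were below and 2 above. The list also counts OXA1L, an inner membrane insertase and not a protease, among the mixed genes. The medians were −0.05 for hairpin 2 and −0.19 for hairpin 5. XPNPEP3, a mitochondrial aminopeptidase, differed by −0.70 and −0.92, although the mean of its probe sets was 0.02 and 0.03. IMMP2L, an inner membrane signal peptidase subunit, differed by −0.38 and −0.72, and AFG3L2, a subunit of the matrix AAA protease, by −0.32 and −0.28. PMPCA, a subunit of the peptidase that cuts off matrix targeting sequences, was 0.10 and 0.32 higher, and LACTB 0.40 and 0.19 higher. As means over their probe sets, IMMP2L differed by −0.17 and −0.26, AFG3L2 by −0.21 and −0.16 and LACTB by 0.21 and 0.0073.

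Other mitochondrial chaperones and assembly factors had medians of −0.05 and −0.05. Averaged over hairpins the median was −0.0525, and −0.15 over the 8 genes left without _s_at and _x_at probe sets. Of the 14 genes both hairpins placed 8 below the control and 3 above it, against shares of 31.0% and 30.5% among all genes. The cysteine desulfurase NFS1 differed by −0.14 and −0.67, BCS1L by −0.12 and −0.25, and ATPAF2, an assembly factor of ATP synthase, by −0.11 and −0.34. The prolyl isomerase PPIF was 0.12 and 0.33 higher, CLPB 0.26 and 0.13, and HSCB, the J-protein of iron-sulphur cluster assembly, 0.20 and 0.10. As means over probe sets CLPB stood at 0.04 and −0.04, PPIF at 0.39 and 0.47, ATPAF2 at −0.07 and −0.09 and NFS1 at −0.095 and −0.40. GRPEL2, the paralog of GRPEL1, differed by −0.04 and −0.31 (−0.19 and −0.096 as means over its probe sets), where GRPEL1 differed by −0.67 and −0.43.

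Import genes were spread over both sides. Of 28 on the array, 12 were below and 6 above the control with both hairpins, beside 31.0% and 30.5% of all genes, and the medians were 0.02 and −0.14. The lowest were TIMM9, PAM16 and the outer membrane receptor TOMM20 (−0.29 and −0.50). TIMM9, a chaperone of the intermembrane space, differed by −0.44 and −0.56. PAM16, a regulator of J-proteins at the import motor that HSPA9 drives, differed by −0.47 and −0.35. SAMM50, which inserts outer membrane proteins, was 0.32 and 0.26 higher, TIMM8B 0.19 and 0.16, and TOMM34 0.13 and 0.90. As means over their probe sets, SAMM50 stood at 0.06 and −0.13 and TIMM8B at −0.01 and −0.07.

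Cytosolic heat shock chaperones stood on the other side from most members. Of 27 on the array, 16 were above the control with both hairpins and 4 below it, where 30.5% of all genes were higher and 31.0% lower. The list held 31 genes, but HSPA1A, HSPA1B, HSPA8 and AHSA1 had no probe set that names them alone and were not counted. The median was 0.22 with hairpin 2 and 0.20 with hairpin 5, and 0 were 2-fold from the control with both. CDC37, which loads kinases onto Hsp90, read 8.76 with hairpin 2 and 8.75 with hairpin 5, against 8.23 on the control array. STIP1, which links Hsp70 to Hsp90, was 0.38 and 0.54 higher, and the J-protein DNAJA1 0.63 and 0.39 higher, while DNAJA4 differed by −0.26 and −0.31, DNAJB6 by −0.21 and −0.34 and FKBP4 by −0.19 and −0.07. As means over their probe sets, FKBP4 stood at −0.03 and 0.16, DNAJA4 at −0.13 and −0.22 and STIP1 at 0.74 and 0.99. Averaged over hairpins the median difference was 0.18, and it was 0.12 when all probe sets of a gene were averaged.

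Paralogs in other compartments lay on both sides. The cytosolic Hsp90 genes, relatives of TRAP1, were higher: HSP90AA1 by 0.20 and 0.24 and HSP90AB1 by 0.28 and 0.46. Their counterpart of the endoplasmic reticulum, HSP90B1, differed by −0.22 and −0.49, and HSPA5, the Hsp70 there, by −0.61 and −0.55. LONP2, the peroxisomal relative of LONP1, was mixed (0.19 and −0.61), as was DNAJA2 (−0.40 and 0.20). Several of these moved when the probe sets of a gene were averaged: HSP90AA1 to 0.52 and 0.39, HSP90AB1 to 0.078 and 0.19, HSP90B1 to −0.0095 and −0.21, LONP2 to 0.02 and −0.22 and DNAJA2 to 0.009 and 0.20.

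The cytosolic chaperonin, a relative of HSPD1 that needs no separate lid, and its partner prefoldin had medians of 0.05 and 0.08. Of 12 genes, 6 were above and 3 below the control with both hairpins (30.5% and 31.0% of all genes). The subunits CCT6A (0.32 and 0.35), CCT2 (0.24 and 0.32) and CCT7 (0.22 and 0.41) were higher, while the prefoldin subunits PFDN2 (−0.47 and −0.80) and PFDN4 (−0.41 and −0.42) were lower, as was CCT5 (−0.03 and −0.41). For PFDN4 the mean of its probe sets was −0.16 and 0.02, and for CCT2 it was 0.81 and 0.90.

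Factors of the heat shock and mitochondrial stress responses had medians of 0.01 and −0.14. Of 19, both hairpins placed 4 above and 7 below the control, beside 30.5% and 31.0% over all genes. HSF1, the main heat shock factor, read 6.21 with hairpin 2 and 6.38 with hairpin 5, against 6.06 on the control array. TFAM, which packages mitochondrial DNA, was 0.48 and 0.13 higher (0.09 and 0.01 as means over its probe sets), and the nuclease ENDOG 0.31 and 0.08. DDIT3 (CHOP), known to bind the HSPD1 and HSPE1 promoter under mitochondrial stress, read 7.23 with hairpin 2 and 6.56 with hairpin 5, against 8.60 on the control array. CEBPB, a dimer partner of DDIT3, differed by −0.52 and −0.50, and the transcription factor NRF1 by −0.52 and −0.53 (−0.22 and −0.17 as means over its probe sets).

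**Figure D4:**
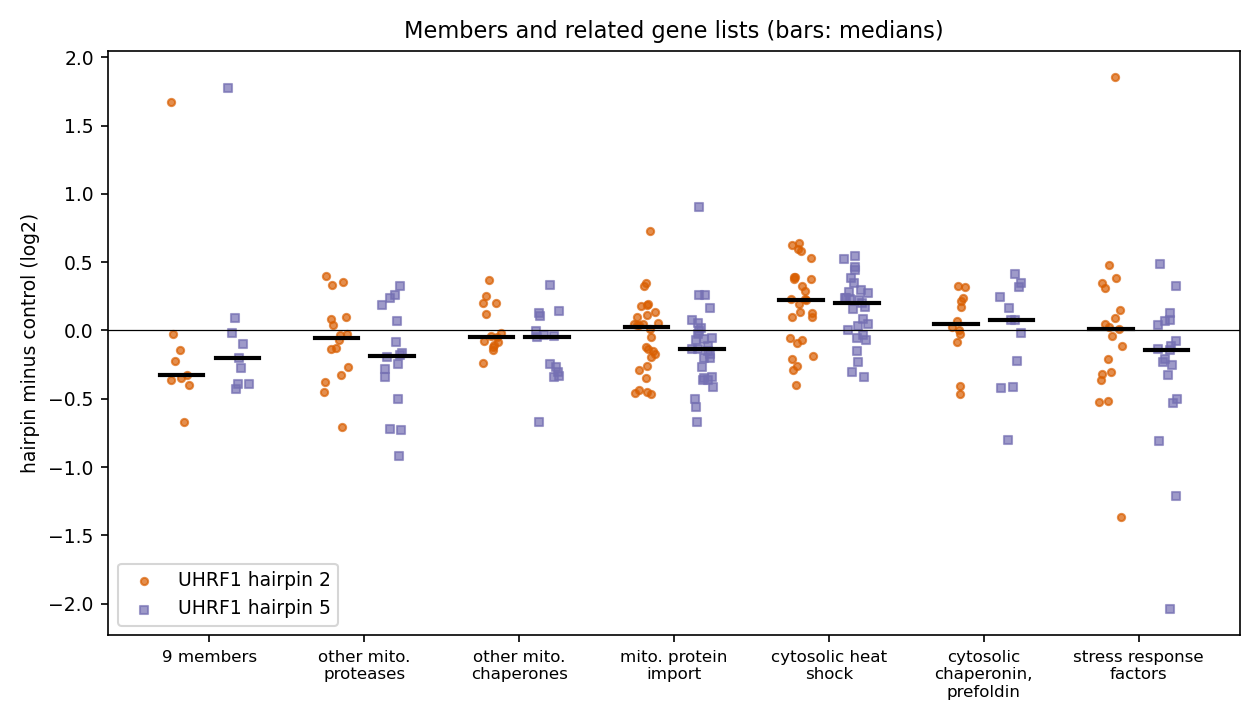
Difference from the control on the log2 scale for each gene of the member set and of 6 related lists, hairpin 2 (circles) left and hairpin 5 (squares) right in each column, with black bars at the medians. The member medians lie at −0.32 and −0.20 with HSPE1 far above them at 1.67 and 1.78, and the cytosolic heat shock medians lie at 0.22 and 0.20.

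The genes nearest HSPE1 in both differences, over 3 arrays that share 1 control, were found among genes at or above the 40th percentile by the larger of the 2 distances. The efflux transporter ABCC2 was nearest (1.77 and 1.61 higher, distance 0.17), then ENC1 (1.58 and 1.99, distance 0.21), EPB41L4B (1.457 and 1.498, distance 0.28), CYB5B, a cytochrome b5 of the mitochondrial outer membrane (1.48 and 1.18, distance 0.60), and the calcium sensor VSNL1 (0.99 and 1.41, distance 0.68). As a mean over probe sets and hairpins EPB41L4B stood at 0.27 and ENC1 at 0.88.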

How the data were processed

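The values were deposited as one table of log2 expression per probe set, which the authors summarised by RMA in Affymetrix Expression Console according to the processing notes, per the labels; versions and settings are not given in the sources used here. That the base is 2 follows only from the range of the values (at most 14.06), and how they were centred is not known. RMA gives no detection calls and compresses small differences at low levels. Of 54613 probe sets, the platform annotation names 1 gene for 41091, several for 1801 and none for 11721; gene identifiers of 41037 matched RefSeq (GRCh38.p14). For each of 19775 genes the brightest probe set, by mean over the arrays, stood for the gene. Listed genes that no probe set names alone were left out of the list counts.

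The members, the related lists and the rule for named genes were chosen with earlier results of these data known. HSPE1 was picked because it was higher with both hairpins, so no test is given for it. Both hairpin arrays carry the same source label, and they served as 2 replicates against 1 control array. Limma 3.58.1 under R 4.3.3 (lmFit, eBayes) was fitted to all 54613 probe sets with no filter, and its two-sided p-values were adjusted by Benjamini-Hochberg over all of them. It has 1 residual degree of freedom per probe set, moderated to 3.63, and takes the spread of the single control to equal that of the hairpins. Each hairpin and the control has 1 array and no repeat. The p-values therefore rest on the spread between the 2 hairpin arrays, moderated over probe sets, and on no measured spread of the control.

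The named genes were all members, UHRF1, the paralogs and neighbours of members, the 5 genes nearest HSPE1 in difference with both hairpins, and in each list up to 3 genes on each side ranked by whichever hairpin differed less, among genes at or above the 40th percentile of mean level (log2 3.28). Alternatives were averaging the probe sets of a gene, no _x_at or no _s_at and _x_at probe sets, filters at the 40th and 60th percentiles, median centring, cyclic loess, quantile normalization, other variance priors, an adjusted p of 0.1, a gene-level fit, 1.5-fold and 3-fold thresholds, and each hairpin alone.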

Additional observations from a re-analysis of the deposited data

How the results depend on the processing

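The HSPE1 difference was 1.72 with median centring, 1.76 with cyclic loess and 1.76 with quantile normalization. The remaining alternatives could not test it. HSPE1 has a single bright probe set, so averaging and the filters return the same value. Each hairpin alone returns its own difference, 1.67 or 1.78. Without _s_at and _x_at probe sets HSPE1 has no value, and then 0 member probe sets were 2-fold higher with both hairpins. Of the 8 other genes, 6 to 8 were lower under all alternatives, 6 of 6 without _s_at and _x_at probe sets. The CLPP difference turned to 0.0103 with cyclic loess and 0.0083 with quantile normalization. The median absolute difference between hairpins over the 9 genes (0.05) was 0.17 with quantile normalization, 0.1553 with cyclic loess and 0.107 over averaged probe sets. Counts of features at least 2-fold higher and lower with both hairpins were 32 and 56 over probe sets, 9 and 13 over genes averaged over probe sets, 224 and 382 at 1.5-fold, and 5 and 4 at 3-fold, and 10 were higher without _s_at and _x_at probe sets. The balance turned between hairpins: hairpin 2 alone gave 305 higher and 121 lower, and hairpin 5 alone 74 higher and 373 lower. Member probe sets 2-fold lower were 0 to 1 with either hairpin alone, and 1 was lower at 1.5-fold. The paralog list median (−0.14) was 0.0028 over averaged probe sets, 0.112 without _s_at and _x_at probe sets and −0.0535 to 0.0765 with either hairpin alone, and that of fibroblast and endothelial markers (0.17) was −0.041 without _s_at and _x_at probe sets. The cause was not tested. Limma called 0 under each alternative run, with the lowest adjusted p 0.456 (intensity trend). No paired analysis was possible because the control has 1 array and its replicate number was given in accession order.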

Other observations

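The kinases that phosphorylate eIF2α upstream of ATF4, part of the stress response list, were singled out after their values were seen. EIF2AK2, the kinase activated by double-stranded RNA, read 8.44 with hairpin 2 and 6.45 with hairpin 5, against 6.59 on the control array. EIF2AK3, the kinase of the endoplasmic reticulum, read 5.25 with hairpin 2 and 3.69 with hairpin 5, against 4.90 on the control array. As means over probe sets the hairpins lay closer together, at differences from the control of 0.91 and −0.13 for EIF2AK2 and 0.34 and −0.44 for EIF2AK3. EIF2AK1, which relays mitochondrial stress, differed by −0.21 and −0.14, and EIF2AK4, which senses amino acid shortage, by −0.30 and −0.81 (−0.095 and −0.03, and −0.17 and −0.50, as means over probe sets). ATF4 itself differed by −0.32 and −0.32 and ATF5 by −0.36 and 0.04, but averaging the ATF5 probe sets gave 0.23 and 0.29. No hairpin has a second array to check them.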
